A study of Rattus norvegicus with 6 samples.

Results

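Genes of meiotic chromosomes and of early germ cells were followed in cultured neonatal rat ovaries. The set was 10 named genes, Dazl, Sycp1, Sycp2, Sycp3, Stag3, Smc1b, Spo11, Dmc1, Mael and Tdrd1, and every probe set whose only symbol in the array annotation was one of these was taken, with no filter on signal. This gave 7 genes with 1 probe set each, out of 14217 named genes on the array and 31042 probe sets tested. Dazl, Dmc1 and Mael were not in the annotation and were not analysed here.

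The ovaries came from female Sprague-Dawley rats that were 4 days old, and they were cultured whole on floating filters for 48 h. There were 3 samples given recombinant human NT3, a neurotrophin, at 50 ng/ml and 3 control samples that received no factor. All 6 were kept in the same medium with albumin, ascorbic acid, transferrin and antibiotics. Each sample pooled 2 to 3 ovaries and was hybridised to 1 Affymetrix array, and the values below are the MAS5 signals that the authors deposited. The labels name biological replicates without saying whether they were separate animals or litters, so the p-values measure the spread between these samples, and the number of arrays limits the precision.

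In females, germ cells enter meiosis before birth, pair and recombine their chromosomes, and then arrest at the end of prophase as oocytes enclosed in primordial follicles. The paired chromosomes are held by the synaptonemal complex, a ladder with lateral elements built on a cohesin axis and a central region that zips the axes together. Recombination starts from programmed DNA breaks, and a separate germ cell pathway based on piRNAs silences transposons. The series title concerns the passage of primordial to primary follicles, and the comparison asks which of these transcripts differed when NT3 was present.

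Defining genes of the ovary were present as labelled. Zp3, a zona pellucida gene of oocytes, had signals of 3544 to 4501 in NT3 ovaries and 4212 to 4363 in control ovaries, and Foxl2, a transcription factor gene of granulosa cells, had 483.5 to 766.5 in NT3 ovaries and 478.8 to 621.9 in control ovaries. Median signals over all probe sets lay between 69 and 75 on the 6 arrays. Control replicate 2 stood apart in RNA quality, with a ratio of the 3′ to the 5′ beta-actin signal of 6.83, against 2.78 to 2.91 on the NT3 arrays and 2.42 and 2.60 on the other control arrays. In whole ovaries, fewer cells of a type and less RNA per cell cannot be told apart.

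The promoters of 4 measured genes are shown because they cover the roles compared below: the axis, the meiotic cohesin complex and the piRNA pathway. In mouse somatic cells, many germ cell genes are held silent by a polycomb complex that contains E2F6 and MGA, which read E2F and E-box elements. Each line is a RefSeq promoter of the GRCr8 assembly, 250 bases before to 50 after the start, written 5′ to 3′ along the gene. TCCCGC or its reverse complement GCGGGA and the E-box CACGTG are in capitals.
Sycp3, chr7:24761226-24761525, plus strand: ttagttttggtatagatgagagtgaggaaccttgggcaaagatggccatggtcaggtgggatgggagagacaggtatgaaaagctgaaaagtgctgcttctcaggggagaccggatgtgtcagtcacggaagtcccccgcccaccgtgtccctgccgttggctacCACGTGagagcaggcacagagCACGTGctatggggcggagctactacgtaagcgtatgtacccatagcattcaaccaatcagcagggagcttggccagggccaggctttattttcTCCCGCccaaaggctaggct
Stag3, chr12:22398158-22398457, plus strand: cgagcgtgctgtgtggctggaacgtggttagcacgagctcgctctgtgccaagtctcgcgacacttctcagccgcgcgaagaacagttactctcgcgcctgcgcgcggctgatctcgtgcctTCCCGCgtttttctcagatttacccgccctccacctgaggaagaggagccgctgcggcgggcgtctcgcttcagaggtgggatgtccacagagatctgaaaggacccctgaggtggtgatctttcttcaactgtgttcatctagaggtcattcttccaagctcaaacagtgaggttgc
Smc1b, chr7:118122599-118122898, minus strand: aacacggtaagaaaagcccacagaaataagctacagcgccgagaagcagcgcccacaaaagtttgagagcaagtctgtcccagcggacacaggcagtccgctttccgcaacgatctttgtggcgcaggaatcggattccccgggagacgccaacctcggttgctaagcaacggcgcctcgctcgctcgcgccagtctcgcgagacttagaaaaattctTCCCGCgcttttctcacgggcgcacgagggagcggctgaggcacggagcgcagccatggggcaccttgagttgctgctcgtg
Tdrd1, chr1:265880775-265881074, plus strand: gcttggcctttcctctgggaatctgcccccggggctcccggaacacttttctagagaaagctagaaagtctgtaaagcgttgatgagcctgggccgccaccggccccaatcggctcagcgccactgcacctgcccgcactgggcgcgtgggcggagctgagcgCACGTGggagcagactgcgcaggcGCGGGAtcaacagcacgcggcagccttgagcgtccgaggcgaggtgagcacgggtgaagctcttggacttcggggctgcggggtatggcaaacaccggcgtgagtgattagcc

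All 10 named genes had a promoter in the RefSeq table, and both motifs were searched on both strands. They were picked after the sequences had been seen. TCCCGC was found in the promoters of 7 of the 7 measured genes and in 8 of the 10 named ones, all but Dazl and Dmc1, against 18.7% of 33469 rat promoters of the same length. CACGTG was found in Sycp3, with 2 copies, in Tdrd1 and in Mael, and in 6.42% of all promoters. The 2 motifs did not overlap in any of these windows. These matches are descriptions of the letters and not of binding.

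NT3 was followed by no detectable change in any of the 7 genes. By limma fitted to all probe sets, 0 of the 7 had an adjusted p under 0.05, where 0.0% of all probe sets did, and 0 of the 7 had an unadjusted p under 0.05, where 2.42% of all probe sets did. The signals of NT3 and control samples overlapped in all 7 genes, whereas they did not overlap in 7.16% of all probe sets. NT3 means were lower in 5 genes and higher in 2 on the log2 scale, and 52.4% of all probe sets were lower. The median log2 difference, NT3 minus control, was -0.043 over the 7 genes and -0.012 over all probe sets.

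**Figure D1:**
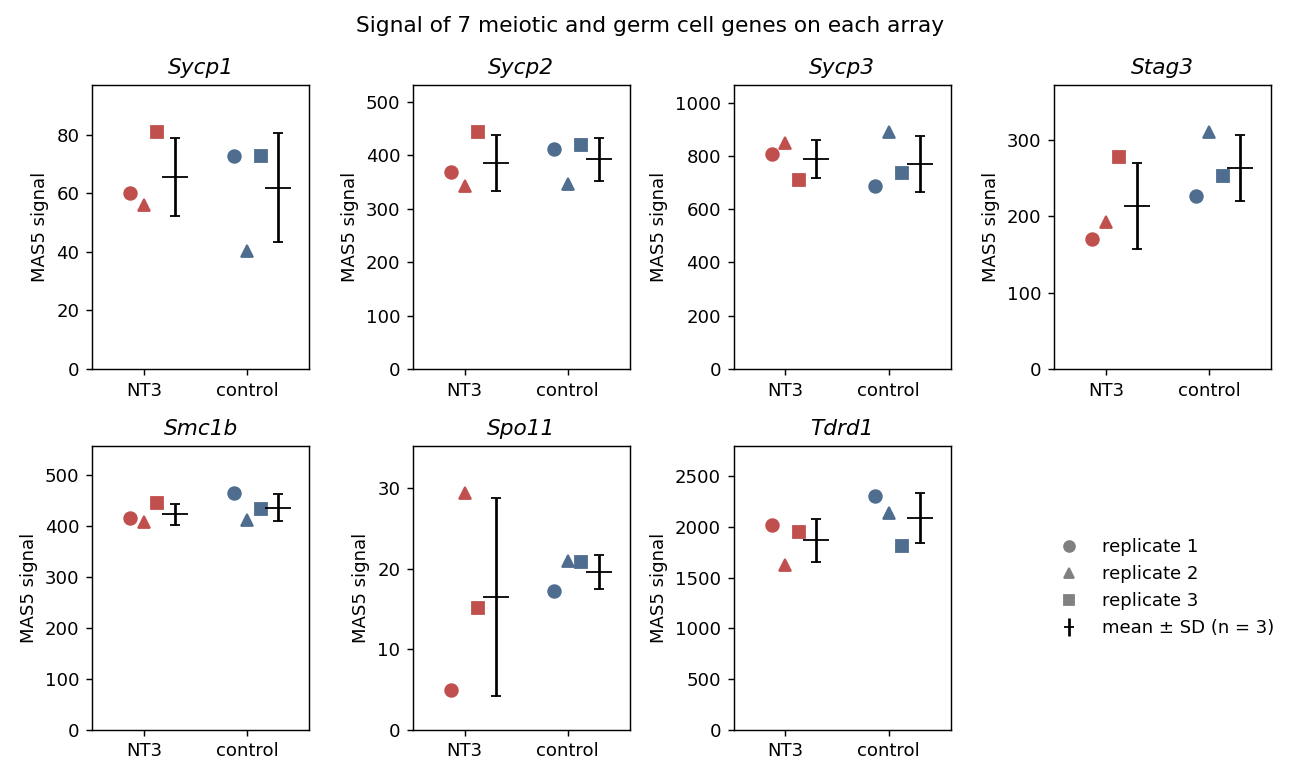
MAS5 signal (linear scale from 0) of the 7 measured genes in the 3 NT3 and 3 control samples, with marker shape giving the replicate number and the bar giving mean ± SD. In every panel the NT3 and control points overlap, and Spo11 reaches at most 29.4.

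The synaptonemal complex genes were the best represented. Sycp3 encodes a structural protein of the lateral elements. Its signals were 805.3, 848.4 and 711.3 in NT3 replicates 1 to 3, against 686.4, 888.7 and 736.0 in control replicates 1 to 3. The highest and the lowest value both fell in controls, and the means were 788.3 ± 70.1 in NT3 and 770.4 ± 105 in control (SD, n = 3). The log2 difference was 0.038 ± 0.13 (SE), with a 95% interval from -0.25 to 0.32 and an adjusted limma p of 1.0. This interval leaves room for a fold between 0.843 and 1.25.

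Sycp2, the partner of SYCP3 in the lateral elements, had 369.7, 343.3 and 443.4 in NT3 samples, against 412.9, 345.8 and 418.6 in control samples. Both samples numbered 2 were the low ones, 2.5 signal units apart. The log2 difference was -0.029 ± 0.14, with an interval from -0.34 to 0.28 and an adjusted limma p of 1.0.

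Sycp1 encodes the transverse filament that bridges the axes. Its signals were low, at 60, 56.2 and 80.9 in NT3 samples and 72.8, 40.3 and 72.7 in control samples. The lowest value was that of control replicate 2. The RNA quality of that array stood apart as given above, and its part in this result was not tested. The log2 difference was 0.12 ± 0.30, with an interval from -0.56 to 0.79 and an adjusted limma p of 1.0, and it was -0.17 without control replicate 2.

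Stag3 and Smc1b encode cohesin subunits particular to meiosis, which hold sister chromatids together, in the mouse through the long arrest of the oocyte. Stag3 had 170.3, 192.5 and 277.4 in NT3 samples, against 225.8, 309.9 and 252.3 in control samples. NT3 replicates 1 and 2 lay below every control, and NT3 replicate 3 lay above controls 1 and 3. The means were 213.4 ± 56.5 in NT3 and 262.7 ± 43.0 in control (SD, n = 3), and the log2 difference was -0.32 ± 0.20, from -0.77 to 0.13, with an adjusted limma p of 1.0 and an unadjusted p of 0.146. With 1 array left out it was lowest at -0.52, without NT3 replicate 3, the NT3 sample of highest signal, at an unadjusted limma p of 0.0195. In that fit 764 of 31042 probe sets had an unadjusted p under 0.05. The difference was -0.17 without NT3 replicate 1, at an unadjusted limma p of 0.442, and -0.19 without control replicate 2, at 0.353.

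Smc1b was the steadiest of the 7 genes. It had 415.4, 406.3 and 444.9 in NT3 samples, against 464.0, 410.2 and 431.7 in control samples. The spread within groups was 4.78% of the mean in NT3 and 6.22% in control. With a log2 difference of -0.043 ± 0.11 and an interval from -0.28 to 0.20, the data leave room for a fold between 0.822 and 1.15. The adjusted limma p was 1.0.

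The 5 cohesin genes that also serve dividing body cells gave values beside these. Stag2 had a log2 difference of 0.17 ± 0.14, with 1187 in NT3 and 1066 in control. Its control signals were 1128.8, 850.2 and 1219.8, lowest in control replicate 2, against 1125.5, 1191.3 and 1244.0 in NT3 samples. The part of that array in the Stag2 difference was not tested. Rad21 had 0.10 ± 0.094, with 1814 in NT3 and 1687 in control. Over the 5 genes, 4 were higher and 1 lower, from -0.13 to 0.17, and 0 passed limma's test. Whether the meiotic and the general cohesin genes differed in response was not tested.

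Tdrd1 encodes a Tudor protein of the germ granules in which piRNAs are made, a role known from mouse testis. It had 2019, 1625 and 1954 in NT3 samples, against 2302, 2139 and 1815 in control samples. Its lowest signal was in NT3 replicate 2 and its highest in control replicate 1, while NT3 replicates 1 and 3 lay above control replicate 3. The means were 1866 ± 211 in NT3 and 2085 ± 248 in control (SD, n = 3). The log2 difference was -0.16 ± 0.13, from -0.45 to 0.13, with an adjusted limma p of 1.0.

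Spo11 encodes the enzyme that makes the programmed DNA breaks at the start of meiotic recombination. It was the 1 gene of the 7 whose mean lay below the 40th percentile of signal, 41.3, on the array scale. Signals were 4.9, 29.4 and 15.1 in NT3 samples, against 17.2, 20.9 and 20.8 in control samples, so that NT3 held both extremes. The log2 difference of -0.59 ± 0.65, from -2.06 to 0.87, turned to 0.11 without NT3 replicate 1. No difference was detected for Spo11, and detection calls were not used here.

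**Figure D2:**
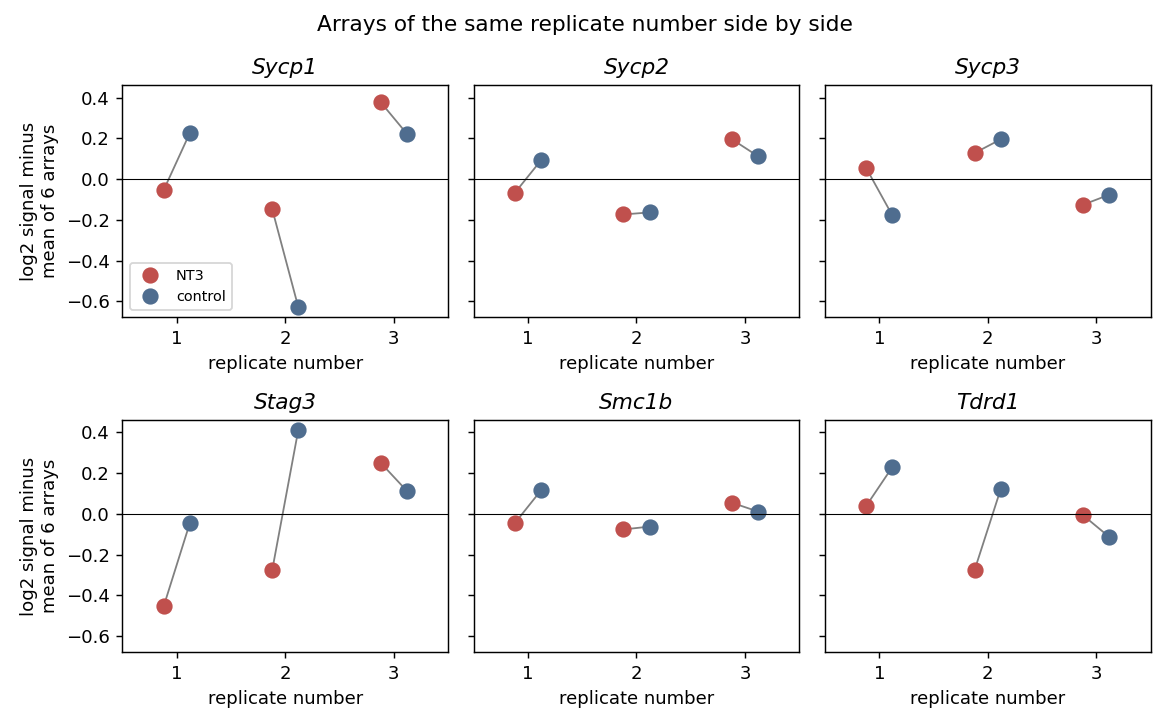
Log2 signal of 6 genes minus its mean over the 6 arrays (vertical axis), with NT3 and control samples of the same replicate number joined by a line. Both samples numbered 2 are low for Sycp1 and Sycp2 and high for Sycp3, and in pair 1 the NT3 sample is lower for every gene shown except Sycp3.

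The sum of squares of each gene's log2 signals over the 6 arrays was split between treatment and replicate number, as a description with no test. Replicate number has 2 of the 5 degrees of freedom and treatment 1, so that with no effect of either the number takes 40% on average and treatment 20%. Treatment took 1.04% for Sycp2, 1.97% for Sycp3 and 3.17% for Sycp1, and the number took 86.6%, 72.9% and 74.9%. For the other genes treatment took between 10% for Smc1b and 28.9% for Stag3, and the number between 35.0% for Tdrd1 and 53.2% for Spo11. The number took the larger part in all 7 genes, as it did in 78.2% of all probe sets, where the medians were 9.89% for treatment and 46.1% for the number. At or above the 40th percentile of signal, where 6 of the 7 genes lie, it did so in 81.8% of probe sets. The medians there were 8.41% for treatment and 51.5% for the number. Samples numbered 2 lay on average 0.39 below the gene's own mean for Sycp1 and 0.17 below it for Sycp2 on the log2 scale, but 0.16 above it for Sycp3. Sycp3 therefore ran opposite to Sycp1 and Sycp2 in these samples. The means of the samples numbered 2 were -0.069 for Smc1b, -0.075 for Tdrd1, 0.067 for Stag3 and 0.639 for Spo11. The beta-actin ratio was 2.91 in NT3 replicate 2 and 6.83 in control replicate 2, and the part of RNA quality in these values was not tested.

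Within the pairs of equal number, direction changed from pair to pair. In pair 1 the NT3 sample was lower for 6 of the 7 genes, all but Sycp3, whereas in pair 3 it was higher for 5, all but Sycp3 and Spo11. Stag3 had log2 differences of -0.41, -0.69 and 0.14 in pairs 1 to 3, and Tdrd1 had -0.19, -0.40 and 0.11. None of the 7 genes moved the same way in all 3 pairs. In the fit that blocked on replicate number, the unadjusted limma p was 0.098 for Stag3 and 0.189 for Tdrd1, and the adjusted p was 0.999 for all 7.

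Genes whose pattern over the 6 arrays was most alike were sought for Sycp1 and Stag3, the most variable genes at or above the 40th percentile, among 13979 other named genes. Likeness was the root mean square difference of log2 signals centred on their own means. For Sycp1 they were Spice1, a centriole gene, at 0.053, Ivns1abp at 0.072 and Ccnb1, which encodes cyclin B1, at 0.080. Ccnb1 had 2215, 1957 and 2930 in NT3 samples, against 2560, 1650 and 2789 in control samples, again lowest in control replicate 2. For Stag3 they were the adhesion gene Nectin1 at 0.062, C1qtnf4 at 0.068 and the kinase anchor gene Akap6 at 0.080. The candidate genes had no signal filter, and Akap6 had only 20.5 to 38.0, under the 41.3 of the 40th percentile. C1qtnf4 was also low, with 30.9 to 51.3, on both sides of that value. How close a match arises by chance among so many genes over 6 arrays was not computed, so the matches are descriptions only.

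Other meiotic genes gave the same count of 0 adjusted limma calls. Of 25 listed recombination genes 9 were measured, 3 higher and 6 lower in NT3, with a median log2 difference of -0.010. Rec114, which is needed for meiotic DNA breaks in the mouse, was the 1 gene of the 9 with an unadjusted p under 0.05 and the 1 whose groups did not overlap. It had 54.1, 57.0 and 77.1 in NT3 samples, against 87.7, 92.4 and 104.6 in control samples. Its log2 difference was -0.61 ± 0.22, with an unadjusted limma p of 0.0208 and an adjusted p of 1.0, at low signals. Over all probe sets 1.52% were lower at that threshold, and 4.28% did not overlap and were lower. Msh5, a crossover gene, lay below the 40th percentile of signal, with 22.1 in NT3 and 13.3 in control. Its groups overlapped, and the log2 difference was 0.83 ± 0.57, with an unadjusted limma p of 0.183.

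Of 15 further axis and synapsis genes 3 were measured. Sun1, which tethers telomeres to the nuclear envelope, had 707.0 ± 21.2 in NT3 and 727.4 ± 22.1 in control (SD, n = 3). Syce3, a central element gene below the 40th percentile of signal, had 34.0 in NT3 and 28.2 in control. The 3 had 1 higher and 2 lower, with a median of -0.036. Of 16 other piRNA and germ granule genes 7 were measured, 3 higher and 4 lower, with a median of -0.056. Ddx25, a germ cell RNA helicase gene, had 252.1, 231.7 and 305.9 in NT3 samples, against 317.4, 327.5 and 303.3 in control samples. NT3 replicate 3 lay just above the lowest control, and the log2 difference was -0.27 ± 0.13, with an unadjusted limma p of 0.072 and an adjusted p of 1.0. Tdrd12, a relative of Tdrd1, had -0.26 ± 0.21.

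**Figure D3:**
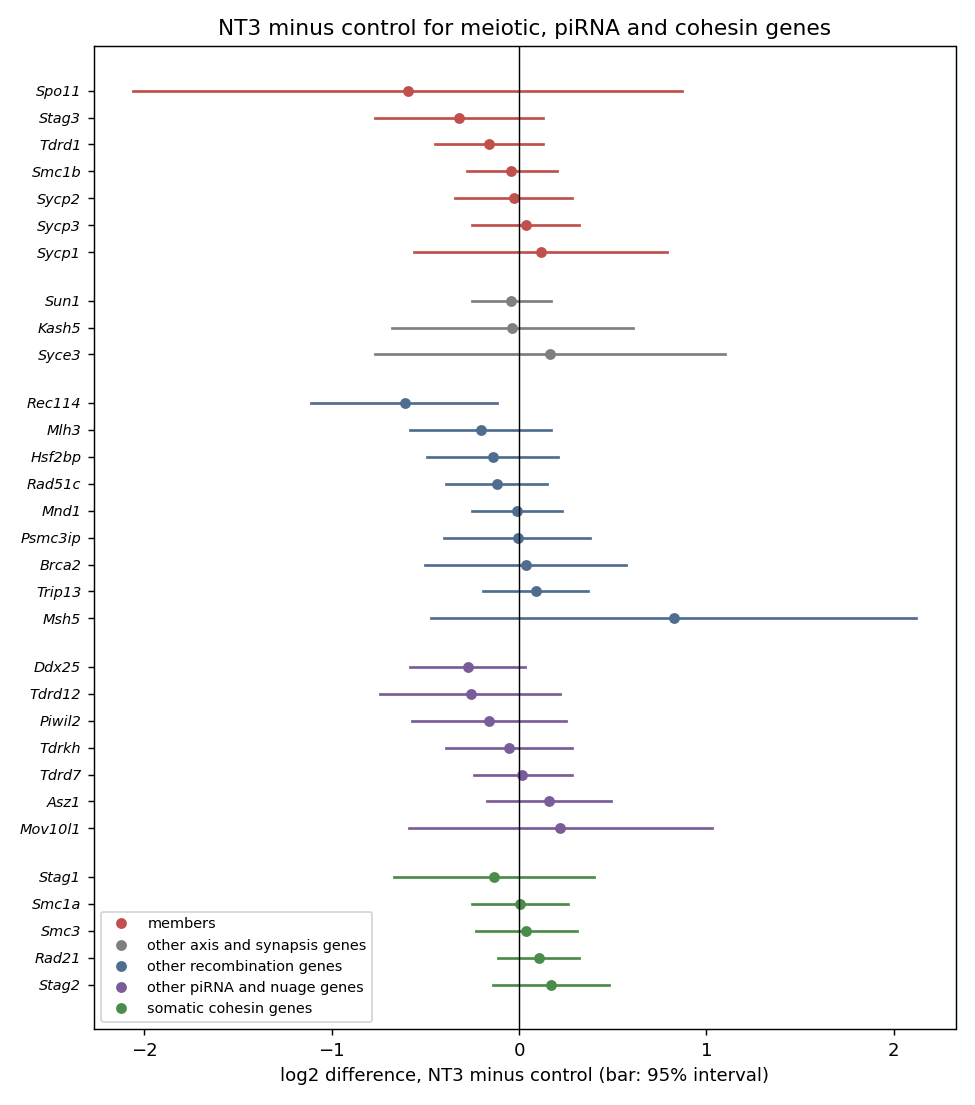
Log2 difference, NT3 minus control (horizontal axis), with its 95% interval for the 7 measured genes and for the other axis, recombination, piRNA and general cohesin genes. The interval includes 0 for every gene shown except Rec114.

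Early germ cell genes other than these had 8 of 19 measured, with 2 higher and 6 lower and a median log2 difference of -0.12. Tex14, a gene of the bridges between germ cells, had 204.2, 211.4 and 194.1 in NT3 samples, against 226.1, 219.0 and 223.3 in control samples. It was the 1 gene of the 8 whose groups did not overlap, where 4.28% of all probe sets did not overlap and were lower. The log2 difference was -0.13 ± 0.12, with an unadjusted limma p of 0.294 and an adjusted p of 1.0. Tfap2c, a transcription factor gene of primordial germ cells, lay below the 40th percentile of signal. It had 30.9 in NT3 and 37.4 in control, with 3.5 in NT3 replicate 2. Among regulators of the primordial oocyte, 4 of 8 were measured, with 2 higher and 2 lower and a median of 0.037. Sohlh1, a transcription factor gene of early oocytes, had 463.4 ± 8.54 in NT3 and 440.1 ± 66.1 in control (SD, n = 3). Kit, the receptor gene, had 70.2 ± 4.02 in NT3 and 71.5 ± 42.5 in control, with 23.2 in control replicate 2. Its log2 difference was 0.24 ± 0.50.

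Genes of the growing oocyte, granulosa and stroma were read beside the meiotic genes. The oocyte list had 9 of 18 measured, with 1 higher and 8 lower and a median log2 difference of -0.13, and its summed signal was 14320 to 17980 in NT3 and 16620 to 17650 in control. Zp1, of the zona pellucida, had -0.37 ± 0.25, and Mos, a kinase gene, had only 0.4 to 0.7 in NT3 and 0.5 to 1.8 in control. The 7 meiotic and germ cell genes summed to 3845, 3502 and 3926 in NT3 samples, against 4181, 4155 and 3747 in control samples, a sum that Tdrd1 dominates. NT3 replicate 2 was the lowest array in both sums, and the part of oocyte number in the meiotic signals was not tested.

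The granulosa list had 12 of 12 measured, with 3 higher and 9 lower and a median of -0.060. Amh, the anti-Müllerian hormone gene, had -0.32 ± 0.19, and Foxl2 had 0.16 ± 0.18. The stroma and theca list had 10 of 10 measured, with 8 higher and 2 lower and a median of 0.12. Both lower genes encode steroid synthesis enzymes and lay below the 40th percentile of signal. The groups did not overlap in 2 genes of this list, Cyp11a1 and Lum, of opposite direction, against 7.16% of all probe sets. Cyp11a1, of steroid synthesis, lay below the 40th percentile of signal, at 11.1 to 18.9 in NT3 samples and 27.8 to 31.0 in control samples. It was the 1 gene of the 10 with an unadjusted limma p under 0.05, at 0.0368, against 2.42% of all probe sets, and its p was 0.0556 with the replicate block. Lum, a matrix proteoglycan gene, had 2835 to 3180 in NT3 samples and 1766 to 2813 in control samples, lowest in control replicate 2. Its log2 difference was 0.32 ± 0.17, with an unadjusted limma p of 0.0902, and 0.0463 with the replicate block. Each of these lists had 0 adjusted limma calls.

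**Figure D4:**
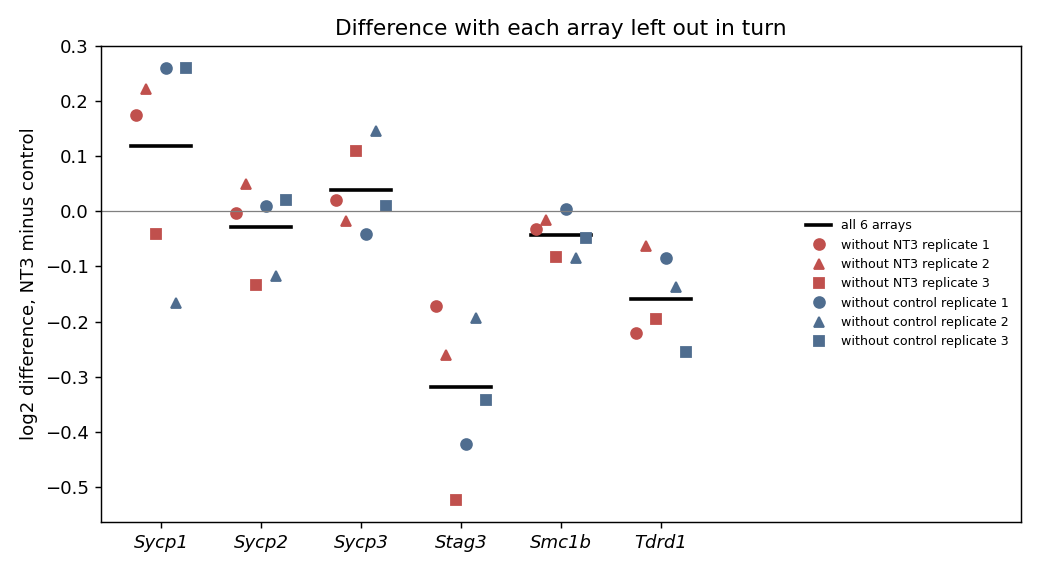
Log2 difference, NT3 minus control (vertical axis), for 6 genes with all 6 arrays (black bar) and with each array left out in turn (points). Stag3 and Tdrd1 stay below 0 throughout, and Sycp1, Sycp2, Sycp3 and Smc1b have values on both sides of 0.

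Leaving out single arrays turned the direction of 5 of the 7 genes. Stag3 and Tdrd1 kept theirs, from -0.52 to -0.17 and from -0.26 to -0.063, and with both arrays numbered 2 left out they had -0.14 and -0.042. Sycp3 ranged from -0.041 without control replicate 1 to 0.15 without control replicate 2, and Sycp2 from -0.13 without NT3 replicate 3 to 0.050 without NT3 replicate 2. No adjusted call was made in any of these fits.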

How the data were processed

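Whole cultured rat ovaries were measured on 6 Affymetrix 1-colour arrays, 3 NT3 and 3 control. The deposited values are linear intensities, 1 for each probe set on each array, and the submitters' processing notes name MAS5 without a version. With 2% trimmed from both tails, the mean intensity of each array came to 210.1, and 0 pairs of arrays were identical. Such arrays read mainly the 3′ part of a transcript, so RNA breakdown affects probe sets unequally.

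After removing 57 control probe sets, 31042 were log2 transformed as deposited, with 0.1 as a floor for 5 that held a 0. All were fitted with limma (version 3.58.1 in R 4.3.3) by lmFit and trended eBayes, 2-sided, with Benjamini-Hochberg adjustment over all at 0.05. No signal filter was used, since the rule for the genes has none. The main fit was also run on simulated data with independent errors and no effect of replicate number, and the outcome is not given here. In the annotation 20826 probe sets had 1 gene symbol, 436 several and 9780 none, and lists used each gene's probe set of highest mean signal. All measured set members were named, and of each other list the 2 genes of lowest unadjusted p. Zp3 was named besides as a check of the tissue. The genes and lists were chosen with earlier results of these data known. Likeness leaves out symbols of unnamed loci.

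The titles give NT3 and control samples the same replicate numbers. Their deviations from group means correlated at 0.23, 0.247 and 0.222 for pairs 1, 2 and 3 over probe sets at or above the 40th percentile of mean signal, and at 0.0256, 0.053 and 0.037 over all. Arrays of unlike number correlated at -0.246 to 0.0286 over the filtered probe sets and at -0.0488 to 0.0196 over all. Centring on group means of 3 ties these values to the matched ones, so the 2 sets are not independent. The numbers were taken to pair the samples from the filtered values, which is a hint from the data and stated by no label, and the block is given as an alternative. Other alternatives were quantile normalization, median centring, filters at the 40th and 60th percentile, eBayes without a trend, an offset of 16, estimated array weights and each array left out.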

Additional observations from a re-analysis of the deposited data

How the results depend on the processing

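Limma gave 0 probe sets with an adjusted p under 0.05 with all arrays and in all 15 alternatives. The count at an unadjusted p under 0.05 was 752 of 31042 with all arrays. It was 240 of 18625 tested with the filter at the 40th percentile and 123 of 12417 with that at the 60th. The share called fell along with the number tested. The 2.42% over all probe sets is therefore higher than the share at or above the 40th percentile, where 6 of the 7 genes lie. The count ranged from 706 to 1217 with single arrays left out, and the 1217 came without control replicate 2, whose beta-actin ratio stood apart. Blocking on replicate number (the replicate block) gave 912, and the block changed no adjusted call, and none at an unadjusted p under 0.05 for the 7 genes, the log2 difference of Stag3 being -0.32 as before. The median log2 difference over the 7 genes was -0.043 and ranged from -0.14 to -0.003 with single arrays left out, moving furthest without control replicate 2. Sycp1 turned from 0.12 to -0.090 with array weights and to -0.062 with both arrays numbered 2 left out, an alternative added after the data were seen. That alternative also moved Stag3 from -0.32 to -0.14 and Tdrd1 from -0.16 to -0.042, with unadjusted p of 0.559 and 0.75, and the offset of 16 moved Spo11 from -0.59 to -0.20. The causes were not tested. With single arrays left out Sycp1 ranged from -0.17 to 0.26, Sycp2 from -0.13 to 0.050, Sycp3 from -0.041 to 0.15, Smc1b from -0.085 to 0.004 and Spo11 from -1.19 to 0.11. Averaging probe sets within genes gave the same values, since each gene had 1. The low signal of Spo11 and, less so, of Sycp1 limits what could be seen in them.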
